A study of Mus musculus with 6 samples.

Results

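Rab GTPases are small membrane proteins that give each compartment of a cell its identity and direct where vesicles dock. The Rab genes were taken as every row whose symbol is Rab, a number and at most 1 lower-case letter, and 55 of the 15035 genes in the table met that rule. RNA was sequenced from leukemia cells grown from BALB/c mouse bone marrow, into which retroviruses had carried mutant CSF3R, the G-CSF receptor, and mutant CEBPA, a myeloid transcription factor. All 6 libraries carry both mutant genes, so the cells are an engineered model and no library without them was compared. In 3 libraries the cells had received DMSO, the solvent, and in 3 they had received GSK-LSD1 at 4 nM, which inhibits LSD1, a demethylase of histones, each for 48 h. Whether the libraries within a group are separate cultures is not stated in the labels, so the p-values reflect only how these samples vary, and that variation may be technical.

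A Rab protein works as a switch. Exchange factors load it with GTP at the right membrane, where it binds effectors such as tethers, motors and fusion regulators, and GTPase-activating proteins return it to the GDP-bound state, in which GDI extracts it from the membrane. In granulocytes and mast cells, members such as Rab27a, Rab27b, Rab3d and Rab37 are known for moving and docking secretory granules, while Rab32 and Rab38 serve the making of lysosome-related organelles.

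The membrane anchor of most Rab proteins is a pair of lipid groups that a prenylating enzyme attaches to cysteines at the protein's end. The last 30 coding bases of genes that the results turn on are shown for that reason, 5′ to 3′ without the stop codon, from the GENCODE vM21 transcripts (GRCm38), with the cysteine codons TGC and TGT in capitals.
Rab38: gttgtcagcTGCtctggcTGTgccaaatcc
Rab32: cccacaacaaagcccaggtcccagTGCTGC
Rab27a: gaggagaaggagaaggggttgTGTggcTGT
Rab3d: ccacccccacagccgagcagcTGCagcTGT
Rab19: gtccccaatgagagcacccgcTGTactTGT
Rab34: gccagcaagaaaaaggccacaTGTTGTccc
Rab5b: cagcagaacaagagccagTGTTGTagcaac
Rab7: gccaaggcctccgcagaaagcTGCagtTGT
At least 2 cysteine codons stood among the last 5 codons of 46 of the 55 Rab genes (83.6%), against 415 of 21513 protein-coding genes (1.93%). The other 9 Rab genes, Rab38 among them, held 1 there. The end of Rab38 spaces its cysteines apart and carries a tail of 3 further codons, whereas Rab32, its close relative, ends in the cysteine pair itself. Most Rab proteins were of like size, with a median of 215 codons and a lowest of 194, and the exception was Rab44 at 725 codons.

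Values are the normalised read counts that the authors deposited. The libraries held 9572638 to 10199533 reads if each library's smallest value is taken as 1 read. A gene was tested where its value reached 10 in at least 3 libraries. The markers of myeloid and neutrophil progenitors (14 of 15 in the table, Ly6g not) were all detected, with summed levels of 18790 to 20078 in DMSO libraries and 25330 to 25976 with GSK-LSD1; 8 of the 14 were higher and 4 lower (Elane, Prtn3, Ctsg and Ms4a3). Mast cell and basophil markers were also high, all 10 of them with a mean of at least 10, and summed to 33100 to 35382 against 41541 to 43018. Without Cpa3, the most abundant, the other 9 summed to 19409 to 19944 against 19096 to 19600, and of the 10 markers 4 were higher, 2 lower (Hdc and Fcer1a) and 4 neither. Red cell markers (5 of 9 in the table, the globins not) summed to 198 to 249 against 42.8 to 65.2. Platelet markers, mostly Itga2b, summed to 1894 to 2029 against 1670 to 1731. Without Itga2b the other 5 platelet markers summed to 89.1 to 99.6 against 67.1 to 80.8. Stromal or endothelial markers (4 of 8 in the table), mostly Pecam1, summed to 3782 to 4256 against 4674 to 4776. T and NK markers (4 of 10 in the table), mostly Lck and Klrb1c, summed to 178 to 193 against 130 to 143. B cell markers (3 of 7 in the table) summed to at most 5.1 in any library. The part of these shifts in the Rab results was not tested, and in bulk samples fewer cells of a type and less RNA per cell cannot be told apart.

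After GSK-LSD1 the summed level of the family was close to that in DMSO, Rab38 fell, and Rab34, Rab19, Rab27b, Rab32 and Rab3d rose the most among its tested members. Rab34 was low and met the filter for testing only through its treated libraries. Of the 44 Rab genes tested, 14 passed limma's test with Benjamini-Hochberg adjustment over all genes, 12 of them higher and 2 lower. That is 31.8% of the tested members, against 41.1% of all 11588 tested genes. Rises made up 27.3% of the Rab genes against 20.6% of all genes, and falls 4.55% against 20.5%. These shares are a description, and whether the Rab genes differ from other genes in them was not tested. The median log2 fold change was 0.04 over the Rab genes and -0.01 over all tested genes. The values of the groups did not overlap for 19 of the 44 Rab genes, against 49.5% of all tested genes, and the 14 members past the threshold were among those 19.

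The changes were mostly small. The log2 fold change lay within 0.25 of 0 for 30 of the 44 Rab genes (68.2%), against 65.6% of all tested genes, and within 0.5 for 38 (86.4%), against 85.7%. Among the most abundant genes, those with a mean value of at least 1000, 3 of 16 Rab genes passed the test (18.8%), against 53.9% of 2492 genes. The 55 Rab values summed to 37576 ± 249 (SD, n = 3) in DMSO libraries and 37559 ± 234 with GSK-LSD1, and the sums overlapped (two-sided exact permutation test, p = 1). As a share of the library total the sum was 0.375% ± 0.00159 and 0.38% ± 0.00219, without overlap, and p = 0.1 is the smallest an exact permutation test of 3 against 3 can give.

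Per kb of transcript, which lets genes be compared, Rab7 of late endosomes stood highest with a mean of 2245 over the 6 libraries. Rab5c of early endosomes followed at 1570 per kb and Rab38 at 1522 per kb. On this scale, which rests on the transcript length chosen for each gene, the order of these last 2 turned with treatment. Rab38 held 1803, 1935 and 1896 per kb in the DMSO libraries, above Rab5c at 1602, 1636 and 1564. With GSK-LSD1 Rab38 held 1124, 1191 and 1185 per kb, below Rab5c at 1482, 1587 and 1547. In read counts the order did not turn, and Rab5c lay above Rab38 in all 6 libraries. The DMSO counts were 3067, 3133 and 2995 for Rab5c and 2844, 3052 and 2990 for Rab38. Next came Rab1b at 890, Rab10 at 840, Rab1 at 747 and Rab2a at 701 per kb, and the library values of Rab1b and Rab10 overlapped, as did those of Rab1 and Rab2a. Not per kb but in read counts, the 10 most abundant members took 56.4% of the Rab sum.

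**Figure D1:**
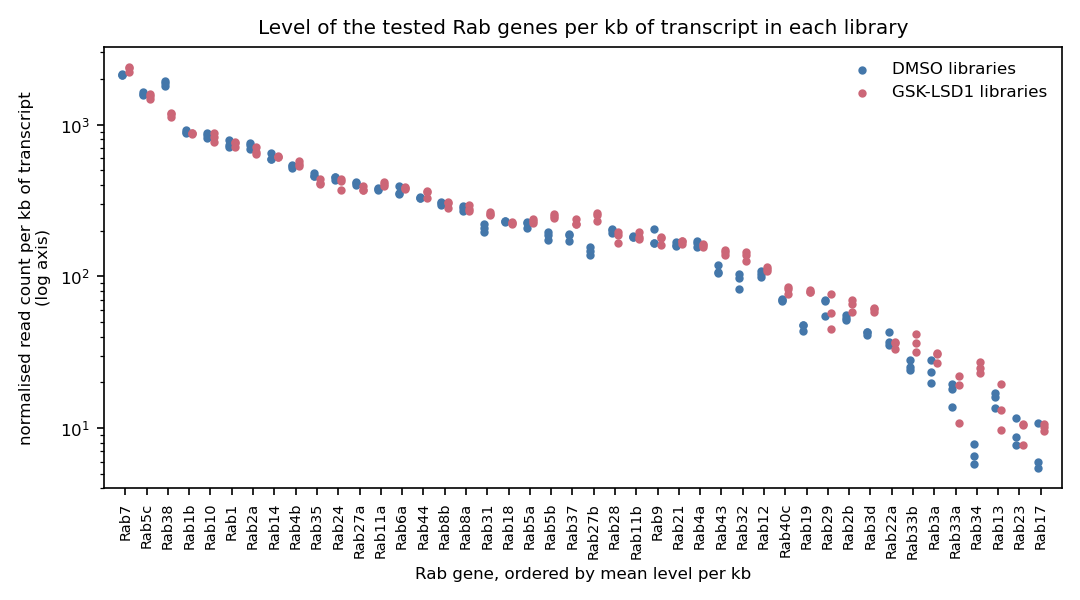
Level of each of the 44 tested Rab genes in each library, as normalised read count per kb of transcript on a log axis, with genes ordered by their mean and blue points for DMSO and red points for GSK-LSD1 libraries. Rab7 leads at a mean of 2245. The points of 19 of the 44 genes do not overlap between treatments, Rab38, Rab27b, Rab19 and Rab34 among them, and those of the others overlap.

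Among the Rab genes of lysosome-related organelles, the pair Rab32 and Rab38 moved in opposite directions. Both proteins bring enzymes to melanosomes and platelet dense granules and share the exchange factor BLOC-3. Rab38 (chr7:88430273-88491572, GRCm38) had values of 2844, 3052 and 2990 in the DMSO libraries and 1772, 1878 and 1869 with GSK-LSD1. All 3 treated libraries lay below every DMSO library. Rab38 was 1.61-fold lower, a log2 fold change of -0.69 (SE 0.0468, limma with Benjamini-Hochberg adjusted p = 1.2e-14), the largest fall among the Rab genes. Rab32 (chr10:10545002-10558265) read 224, 177 and 210 in DMSO and 273, 312 and 297 with GSK-LSD1. The groups did not overlap, and Rab32 was 1.44-fold higher, a log2 fold change of 0.53 (SE 0.0935, limma with Benjamini-Hochberg adjusted p = 1.78e-05). Rab29, which recruits the kinase LRRK2 to membranes, went from 78.6 ± 10.3 to 73.2 ± 19.4 with overlapping groups and did not pass. Hps1 and Hps4, the subunits of BLOC-3, did not pass either, with log2 fold changes of 0.12 and -0.12. Ankrd27, an effector of Rab32 and Rab38, fell by 0.29 on the log2 scale.

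The granule Rab genes had the highest median log2 fold change of the role groups, 0.32 over 6 tested members, of which 3 rose and none fell. The calls of this group were 50% of its tested members, against 41.1% of all tested genes. The role groups were chosen with earlier results of these data known, so their order by median is a description. The summed myeloid markers were also higher in the GSK-LSD1 libraries, with 4 of 14 lower, as given above. So were the summed mast cell and basophil markers, with 4 of 10 higher and 2 lower. Without Cpa3 the sums of the mast cell and basophil markers overlapped between the groups. Whether these marker shifts bear on the granule Rab genes was not tested. Rab27b, which promotes docking of secretory granules, had values of 414, 390 and 367 in DMSO and 702, 672 and 616 with GSK-LSD1. Every treated library exceeded every control. It was 1.7-fold higher, a log2 fold change of 0.76 (SE 0.0688, limma with Benjamini-Hochberg adjusted p = 2.22e-11). Rab3d (chr9:21907491-21918192), found on granules of mast cells and exocrine glands, read 164, 159 and 164 in DMSO against 235, 222 and 238. Its groups lay apart, and it was 1.43-fold higher, a log2 fold change of 0.51 (SE 0.0948, limma with Benjamini-Hochberg adjusted p = 4.06e-05). Rab37, reported on secretory granules of mast cells, rose from 403 ± 23 to 501 ± 21.3, a log2 fold change of 0.31.

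Rab44, a large Rab that regulates mast cell degranulation, was the most abundant granule member in read counts and did not pass the test. Its values were 1365, 1355 and 1348 in DMSO and 1483, 1358 and 1503 with GSK-LSD1. The second treated library lay within the DMSO values, and the log2 fold change was 0.09 (95% interval -0.01 to 0.20, limma with Benjamini-Hochberg adjusted p = 0.145). Rab27a, the relative of Rab27b whose loss causes Griscelli syndrome, held 1227 ± 27.6 and 1131 ± 44.7. Its groups did not overlap, but the log2 fold change of -0.12 did not pass (limma with Benjamini-Hochberg adjusted p = 0.0669). Rab3a, the synaptic vesicle Rab, was low at 32.2 ± 5.62 and 40.3 ± 3.14 and did not pass, and Rab26 was not tested.

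**Figure D2:**
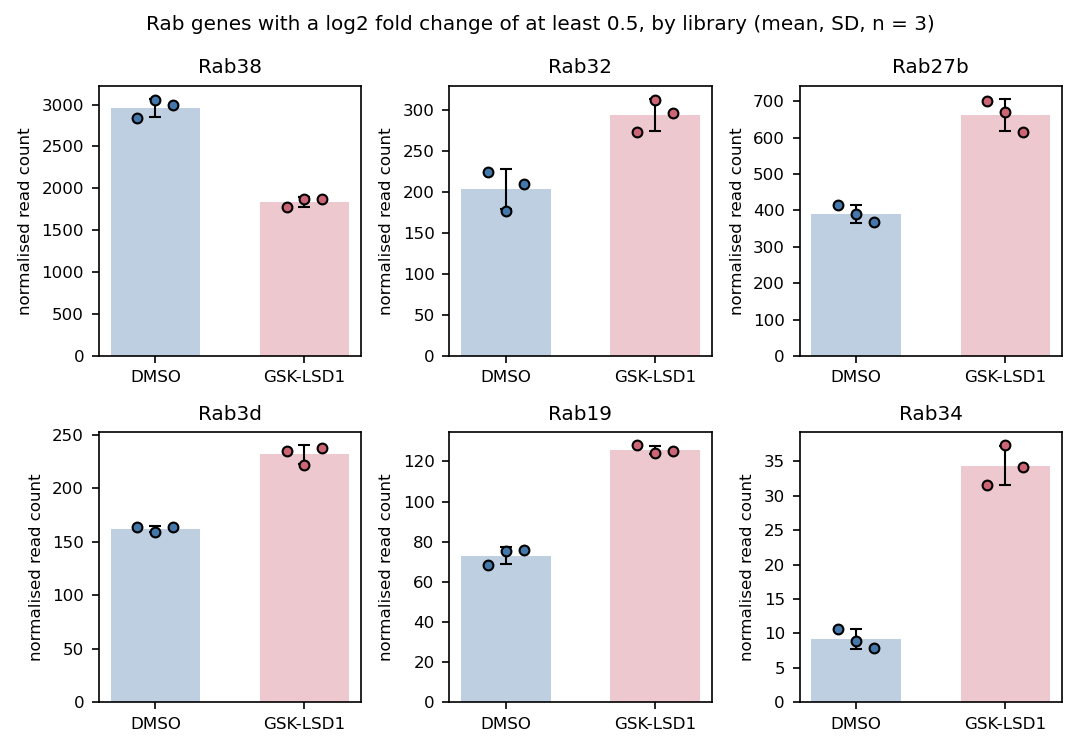
Normalised read count in each library (points), with the group mean (bar, from 0) and SD (error bar, n = 3), for the 6 Rab genes past the threshold whose log2 fold change was 0.5 or more up or down. Rab38 lies lower with GSK-LSD1 and the other 5 lie higher, with no overlap between groups in any panel.

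Genes of the late endosome, lysosome and phagosome included the largest relative rise among tested Rab genes and the most abundant member per kb, with 2 of 5 tested members called (40%, against 41.1% of all tested genes). Rab34 (chr11:78188430-78192193), which acts in phagosome maturation and in the making of primary cilia, had values of 10.7, 8.92 and 7.96 in DMSO and 31.6, 37.3 and 34.1 with GSK-LSD1. It was low in all controls and 3.73-fold higher after treatment, a log2 fold change of 1.80 (SE 0.276, limma with Benjamini-Hochberg adjusted p = 1.92e-06). Only 1 DMSO library reached the value of 10 that the filter asks for, so this gene passed the filter through its treated libraries. Rab7, the main Rab of late endosomes, read 2776, 2712 and 2733 in DMSO and 2863, 3023 and 3064 with GSK-LSD1. The groups lay apart by a small margin, and the log2 fold change was 0.12 (SE 0.0449, limma with Benjamini-Hochberg adjusted p = 0.028). This call was lost in 3 of the 15 settings in which the fit was run (the reported one, other pseudocounts, filters, scalings and weights, a replicate term, and leaving out each library), without DMSO replicate 2 or GSK-LSD1 replicate 2 or 3, where the adjusted p reached 0.152. Rab12, Rab9 and Rab24, with log2 fold changes of 0.11, -0.04 and -0.11, did not pass.

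Rab7b and Rab36 fell short of the filter and were not tested, and they are given because their groups did not overlap. Rab7b, which acts between late endosomes and the Golgi, read 2.93, 2.97 and 0.995 in DMSO and 11.2, 11.4 and 9.73 with GSK-LSD1. Rab36, a relative of Rab34, read 3.91, 5.95 and 0.995 against 9.18, 9.32 and 11.7. Both were low throughout. With no filter on low values both were called, as were 32% of all 15035 genes. Both genes were picked by these same values, so that call is no separate support. Rab20, a phagosome Rab, stayed between 3.96 and 9.32 with overlapping groups.

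Early endosome members gave 2 rises among 6 (33.3% called, against 41.1% of all tested genes). Rab5b, 1 of 3 Rab5 isoforms that drive fusion of early endosomes, read 627, 553 and 599 in DMSO and 769, 793 and 824 with GSK-LSD1. All treated libraries were above all controls, with a log2 fold change of 0.42 (SE 0.0616, limma with Benjamini-Hochberg adjusted p = 7.05e-07). Rab31, which works between the Golgi and endosomes, rose from 726 ± 47 to 900 ± 24.8, a log2 fold change of 0.31. The other 2 isoforms did not follow Rab5b past the threshold. Rab5c, the most abundant of the 3 per kb, read 3067, 3133 and 2995 against 2838, 3039 and 2963, with overlap and a log2 fold change of -0.06 (95% interval -0.15 to 0.03). Rab5a, at 521 ± 24.8 and 547 ± 14.9, had a log2 fold change of 0.07, and Rab21 and Rab22a, at 0.05 and -0.11, did not pass either.

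Of 10 tested members that serve the ER and Golgi, 4 rose and none fell (40% called, against 41.1% of all tested genes). Rab19 (chr6:39381175-39390380), a less studied Rab reported at the Golgi and at cilia, read 68.4, 75.3 and 75.7 in DMSO and 128, 124 and 125 with GSK-LSD1. The 2 groups were tight and far apart. It was 1.72-fold higher, a log2 fold change of 0.77 (SE 0.129, limma with Benjamini-Hochberg adjusted p = 8.1e-06). Rab33b, a Golgi Rab that binds the autophagy protein ATG16L1, rose from 90.2 ± 6.85 to 128 ± 17. Rab43, which acts at the Golgi, rose from 506 ± 35.1 to 664 ± 25.6. Their log2 fold changes were 0.49 and 0.39. Rab2b, a relative of the ER-Golgi Rab Rab2a, rose from 156 ± 5.95 to 187 ± 16.9, a log2 fold change of 0.26 (limma with Benjamini-Hochberg adjusted p = 0.0401). The Rab2b call was lost in 6 of the 15 settings, where the adjusted p reached 0.186. Those 6 settings were no filter on low values, quantile scaling, and leaving out DMSO replicate 1 or 2 or GSK-LSD1 replicate 1 or 2. Exons of other genes on the opposite strand overlap 14 of the 55 Rab genes. Among the called members these are Rab2b (Gm43766 and Tox4), Rab33b (Gm38160) and Rab7 (Gm5577), and the others are Rab10, Rab11b, Rab20, Rab22a, Rab24, Rab26, Rab39b, Rab3a, Rab40c, Rab5a and Rab6a. The treatment of strand in the counting is not given in the sources used here, so reads of either gene may count in these 14 values, which are uncertain.

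The abundant Rab genes of ER-to-Golgi traffic did not pass the test. Rab1, needed for the step from ER to Golgi, read 1947, 1884 and 2119 in DMSO and 1890, 2044 and 2018 with GSK-LSD1. The groups overlapped, and the log2 fold change was 0.00 (95% interval -0.10 to 0.10). Rab1b, Rab6a and Rab18 lay between -0.04 and 0.06, and Rab2a, at -0.12, missed the threshold (limma with Benjamini-Hochberg adjusted p = 0.0642). Rab33a was too variable to place, with a 95% interval from -0.60 to 0.56.

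Among the genes of recycling and delivery to the plasma membrane, 1 of 11 tested members passed (9.09%, against 41.1% of all tested genes). Rab35, which controls endosomal recycling and actin, read 1290, 1360 and 1292 in DMSO and 1171, 1235 and 1153 with GSK-LSD1. Treated libraries all lay lower, with a log2 fold change of -0.15 (SE 0.0515, limma with Benjamini-Hochberg adjusted p = 0.0206). Without DMSO replicate 2 or GSK-LSD1 replicate 1 or 3 the call was lost, at adjusted p up to 0.11. Rab10, which brings transporters to the surface, read 3009, 2869 and 3086 against 2707, 2929 and 3105. The treated values spanned the controls, with a log2 fold change of -0.04 (95% interval -0.14 to 0.06). Rab14, Rab8a, Rab8b, Rab11b, Rab4a and Rab4b lay between -0.03 and 0.06. Rab11a, of the recycling endosome, had 878 ± 12 and 949 ± 26 without overlap, and missed the threshold (limma with Benjamini-Hochberg adjusted p = 0.0942). Rab17 and Rab13, at most 21.4 in any library, had log2 fold changes of 0.49 and -0.18 with intervals that included 0.

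The last group, of cilia and other roles, had no call among the 3 tested of its 7 members (0%, against 41.1% of all tested genes). Rab28, linked to photoreceptor cilia, read 331, 315 and 333 in DMSO and 304, 273 and 320 with GSK-LSD1. The groups overlapped, and the log2 fold change was -0.13 (95% interval -0.29 to 0.04). Rab40c, a Rab with a SOCS box, went from 172 ± 1.84 to 200 ± 10.7 without overlap (limma with Benjamini-Hochberg adjusted p = 0.07), and Rab23, of Hedgehog signalling, had a log2 fold change of 0.03. Rab6b, Rab25, Rab30, Rab39, Rab39b, Rab40b and Rab42, with Rab26, Rab20, Rab7b and Rab36, made up the 11 members left untested, and no value among them exceeded 11.7.

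**Figure D3:**
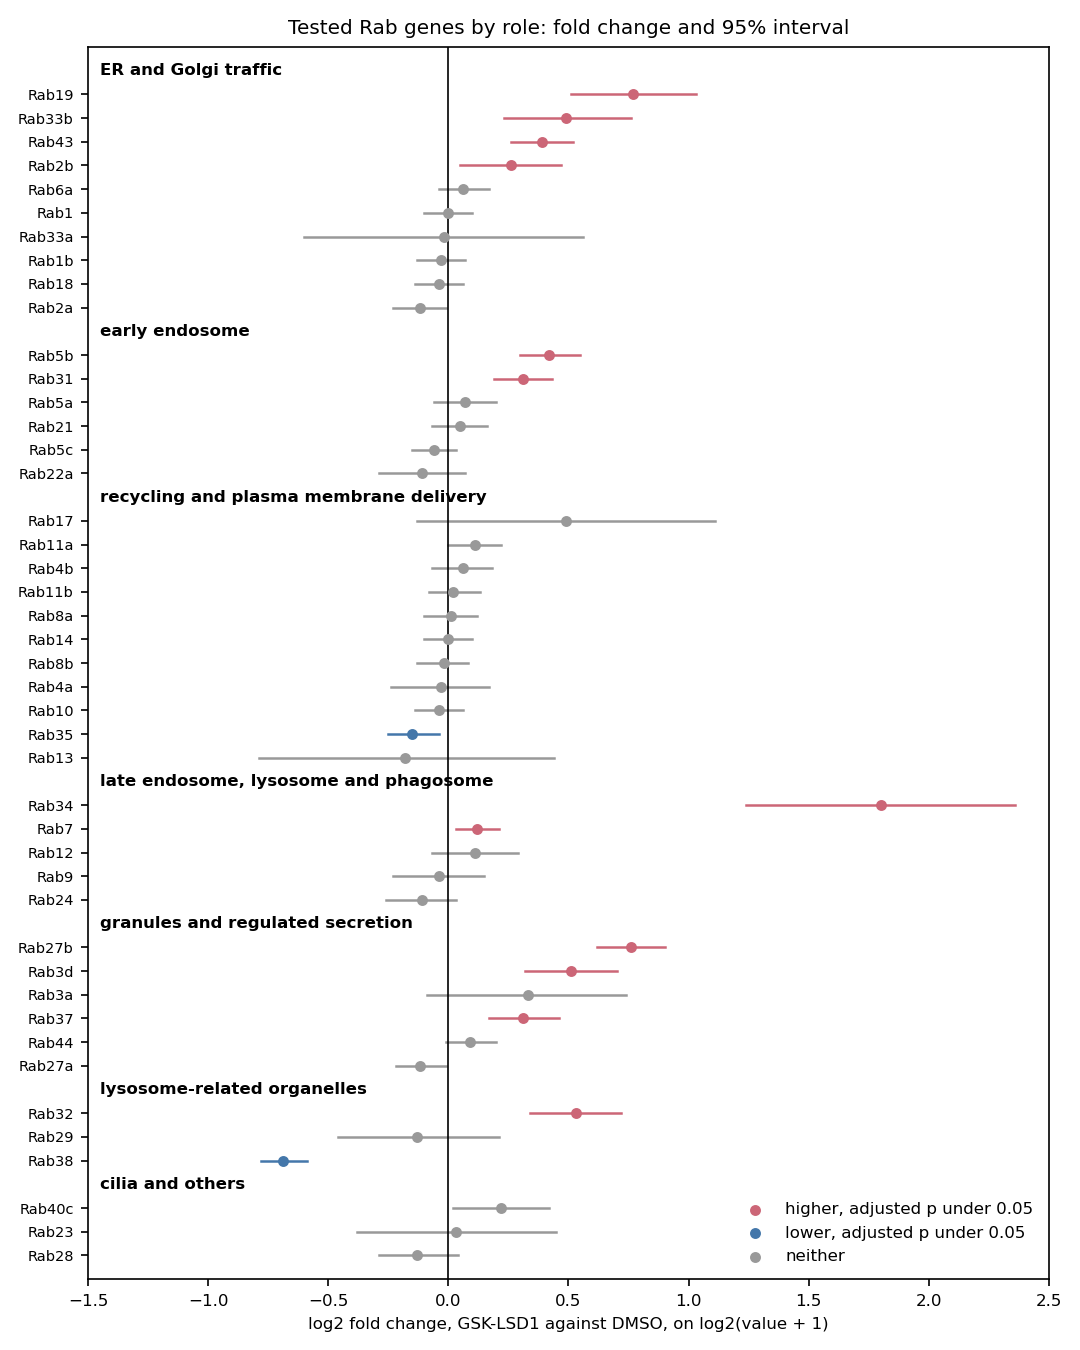
Log2 fold change of GSK-LSD1 against DMSO on log2(value + 1), with its 95% interval, for the 44 tested Rab genes in their role groups, in red where higher and blue where lower at an adjusted p under 0.05 and grey otherwise. Rab34 at 1.80 and Rab38 at -0.69 mark the ends. The recycling group has 1 call and sits close to 0, apart from Rab17 at 0.49 and Rab13 at -0.18, whose intervals are wide.

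The balance within pairs of close relatives was compared for the 12 pairs with both members tested. Rab27a exceeded Rab27b by a log2 ratio of 1.65 ± 0.0568 (SD, n = 3) in DMSO and 0.77 ± 0.0614 with GSK-LSD1. Per kb, Rab27a made up 73.8% ± 0.766 of the pair in DMSO and 60.5% ± 1.02 after treatment, so it stayed the larger. The log2 ratio of Rab32 to Rab38 went from -3.86 ± 0.22 to -2.64 ± 0.0525, and the part of Rab32 per kb from 4.82% ± 0.687 to 10.5% ± 0.345. Rab38 remained the dominant member in every library. Smaller shifts without overlap were seen for Rab5b against Rab5c (0.48), Rab2a against Rab2b (-0.38), Rab5a against Rab5b (-0.35) and Rab5a against Rab5c (0.13). For each of these pairs the two-sided exact permutation test gave p = 0.1, the smallest 3 against 3 allows, and 0.2 after Benjamini-Hochberg adjustment over the 12 pairs. In the other 6 pairs, among them Rab1 with Rab1b and Rab8a with Rab8b, the ratios overlapped between the groups.

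**Figure D4:**
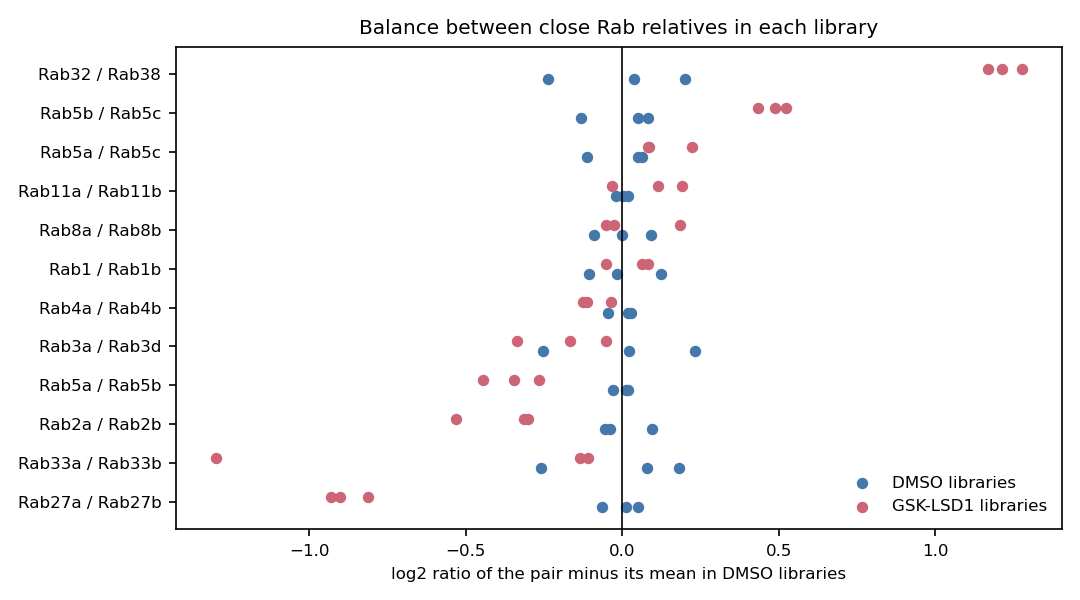
Log2 ratio of each of 12 pairs of close Rab relatives in each library (points, blue for DMSO and red for GSK-LSD1), with the mean ratio of the DMSO libraries set to 0. The 3 treated libraries lie near 1.22 for Rab32 over Rab38 and near -0.88 for Rab27a over Rab27b, apart from the controls, and 6 pairs overlap.

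Partners of the Rab proteins were taken from lists of the Rab cycle. Among 32 tested exchange factors 9 were higher and 3 lower (37.5% called, against 41.1% of all tested genes), with a median log2 fold change of 0.01. Rin2, an exchange factor for Rab5, went from 2.64 ± 1.15 to 26.3 ± 10.1, and Sbf2, a DENN-domain protein, from 3.97 ± 2.63 to 20.1 ± 3.69. Dennd5a rose by 0.65 on the log2 scale. The low Rab3il1, an exchange factor for Rab8, had 1.21, and its call was lost in 4 settings, among them a pseudocount of 5. Rin2, Sbf2 and Rab3il1 passed the filter only through their treated libraries. Mon1a, part of the Rab7 exchange factor, fell by 0.37 and Dennd4a by 0.13, a call lost in 6 settings. Without GSK-LSD1 replicate 1 or replicate 3, where Rin2, Sbf2 and Rab3il1 no longer met the filter, the number of higher exchange factors was 5.

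Among 36 tested GTPase-activating proteins 12 were higher and 4 lower (44.4% called, against 41.1% of all tested genes), with a median of 0.05. Tbc1d4, which acts on Rab10 and related Rabs, rose from 193 ± 6.26 to 865 ± 36.1, and Evi5, which acts on Rab11, from 10.9 ± 4.39 to 59.2 ± 8.33. Tbc1d9 went from 0.992 ± 0.991 to 15.1 ± 4.25. Both Evi5, with 1 DMSO library above 10, and Tbc1d9, with none, passed the filter through their treated libraries. Tbc1d2, which acts on Rab7, rose by 0.66 on the log2 scale. Rabgap1l fell by 0.69, Rab3gap2 by 0.32, Tbc1d1 by 0.23 and Tbc1d14 by 0.16. The calls of Tbc1d2 and Tbc1d14 were lost in 3 and 4 settings. The number of higher members was 7 under quantile scaling and also without GSK-LSD1 replicate 1, and 8 without DMSO replicate 2.

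Genes that prenylate and escort Rab proteins split evenly, with 2 higher and 2 lower of 9 (44.4% called, against 41.1% of all tested genes) and a median of -0.04. Rabggtb, the catalytic subunit of the enzyme that modifies the cysteines shown above, fell from 730 ± 39.2 to 573 ± 28.9. Rabggta, its partner subunit, had a log2 fold change of -0.14 and did not pass. Praf2 fell by 0.27 on the log2 scale. Arl6ip5 rose by 0.34. Gdi2, which holds Rabs in the cytosol, had 5431 ± 466 and 5287 ± 135 and did not pass. The call of Praf2 was lost in 1 setting. Without 1 library at a time, the number of higher escort genes went down to 1 (GSK-LSD1 replicate 1 or 3) and that of lower ones to 1 (GSK-LSD1 replicate 2).

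Effectors of Rab proteins gave 12 higher and 4 lower of 39 tested (41% called, against 41.1% of all tested genes), with a median of 0.10. Myo5a, the motor that Rab27a reaches through its linker proteins, rose from 335 ± 33.5 to 522 ± 19.7. Micall2 rose by 0.72 on the log2 scale, Plin3, an effector of Rab9, by 0.44 and Sytl1, a binder of Rab27, by 0.37. Unc13d, the priming factor that Rab27a recruits to granules, had 1203 ± 33.2 and 1181 ± 23 and did not pass. Rab11fip5 fell by 0.52, Appl2 by 0.34 and Rilpl2 by 0.26. In the fusion machinery of granules 7 of 22 were higher and 3 lower (45.5% called, against the same 41.1%), with a median of 0.10. Syt11, Stx11, Stx7 and Stx3 rose by 1.43, 0.81, 0.80 and 0.58, and Nsf, Vamp8 and Napa fell by 0.33, 0.17 and 0.14. The calls of Sytl1, Napa and Vamp8 were lost in 4, 6 and 1 settings. Without GSK-LSD1 replicate 1 the number of lower fusion genes was 1, without DMSO replicate 2 or GSK-LSD1 replicate 2 or 3 it was 2, as under quantile scaling and an equal total per library.

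Promoter windows of 250 bases before to 50 after each start were found in the RefSeq table (GRCm38.p6) for 44 Rab genes, in 53 windows. Motifs were searched on both strands, and in the Rab windows no match of 1 motif overlapped a match of another. Rab18, Rab26, Rab27b, Rab2a, Rab30, Rab36, Rab37, Rab38, Rab44, Rab4a and Rab7b had no window there. GAGGAAG, the core bound by PU.1 and other ETS factors of myeloid cells, stood in 8 of the 53 Rab windows and in 13.6% of all 32851 windows. Among the 10 higher members with a window it was found for 3, Rab2b, Rab32 and Rab33b. It also stood in windows of Rab12, Rab20, Rab21, Rab6a and Rab6b, which did not pass or were not tested. TTGCNNAA, a C/EBP pattern, stood in 4 Rab windows (10.8% of all), of higher members only in that of Rab43. AATCNNNGC, a GFI1 pattern, stood in 5 (10.3% of all), of higher members only in that of Rab2b. TCACGTGA, the core of the CLEAR element of lysosomal genes, stood in 3 (0.974% of all), those of Rab21, Rab24 and Rab5a, which did not pass the test. To show the letters, 180 bases that end before the earliest annotated start are given for 3 members that rose, 5′ to 3′ in the direction of the gene, with GAGGAAG or its reverse complement CTTCCTC in capitals. They are chr10:10558266-10558445 (minus strand) for Rab32, chr3:51483740-51483919 (plus strand) for Rab33b and chr11:78188247-78188426 (plus strand) for Rab34, where none of the motifs was found.
Rab32: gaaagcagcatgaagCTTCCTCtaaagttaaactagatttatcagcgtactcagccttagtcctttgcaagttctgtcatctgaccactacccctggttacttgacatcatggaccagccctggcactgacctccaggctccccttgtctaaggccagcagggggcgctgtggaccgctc
Rab33b: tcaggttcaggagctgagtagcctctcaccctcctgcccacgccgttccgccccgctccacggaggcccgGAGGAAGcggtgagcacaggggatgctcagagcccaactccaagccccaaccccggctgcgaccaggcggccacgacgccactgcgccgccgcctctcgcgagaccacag
Rab34: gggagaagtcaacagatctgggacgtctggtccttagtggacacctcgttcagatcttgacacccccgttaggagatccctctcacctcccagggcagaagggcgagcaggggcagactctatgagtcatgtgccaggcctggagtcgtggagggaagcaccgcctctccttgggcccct
Outside the stretches shown, the window of Rab32 held another match to GAGGAAG or its reverse complement, at -43 bases from the RefSeq start. The window of Rab33b held others at -32 and 18. A match to so short a pattern is a description of the letters and not of a bound site.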

How the data were processed

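RNA was measured by sequencing in 6 libraries, 3 given DMSO and 3 given GSK-LSD1, grouped by their titles. What the authors deposited is a signal, a normalised read count per gene symbol and library: the smallest value of a library divides its low values into whole numbers. The submitters' processing notes name STAR, DESeq2, mm10 and GRCm38 with no version or role. The counting program, annotation and strand setting were not found in the labels or the file. Count models were not used, since values near 1 per read in DMSO replicates 2 and 3 left the whole reads unproven.

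Genes with a value of at least 10 in at least 3 libraries were tested (11588, with 3447 left out) with limma 3.58.1 (R 4.3.3) on log2(value + 1), trended, two-sided, Benjamini-Hochberg adjusted over all tested genes at a threshold of 0.05. Log2 fold changes are GSK-LSD1 against DMSO on that scale and understate changes of low genes. The test was also run on simulated counts with a fixed spread and far fewer changed genes than were called here. Genes with a DMSO mean under 10 were not changed there, so that run does not give the error rates of these data. Levels per kb used the length of the principal (APPRIS) transcript of each gene in GENCODE vM21. By name, 54 Rab symbols matched directly and Rab1 through its RefSeq synonym. Coordinates are those of GENCODE vM21.

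The Rab genes, role groups and other lists were chosen with earlier results of these data known. Members past the threshold with a log2 fold change of at least 0.5, and the member with the highest mean in each role group, are given library by library; of the other lists up to 4 rises and 4 falls are named, and some genes that this selects are not reported here. Rab genes and partners named beside these (Rab5b and Rab35 library by library, Rab7b, Rab36, Hps1, Hps4, Unc13d, Rabggta, Gdi2) were added after their values were seen. Alternatives were pseudocounts of 0.5 and 5, no filter, a mean of at least 50, quantile scaling, an equal total per library, voom weights, a replicate block and leaving out each library.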

Additional observations from a re-analysis of the deposited data

How the results depend on the processing

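Depth limits the members with values near 10, and 3 libraries per group limit exact tests to p = 0.1 at best. The number of Rab genes past the threshold ranged from 11 to 15 over all settings, and 11 of the 14 called members passed in every setting in which they were tested (limma with Benjamini-Hochberg adjustment). The calls of Rab2b, Rab7 and Rab35 were lost in 6, 3 and 3 settings. The median log2 fold change of Rab genes was 0.0592 with an equal total per library, and 0.0294 to 0.0634 without 1 library at a time. The higher GTPase-activating proteins numbered 7 under quantile scaling. Without 1 library at a time, the lower Rab genes numbered 1 to 3, higher exchange factors 5 to 11, higher GTPase-activating proteins 7 to 12, higher escort genes 1 to 2, lower escort genes 1 to 2 and lower fusion genes 1 to 3. The log2 fold change of Rab1 was -0.03 to 0.05 and that of Rab10 was -0.08 to 0.01, so their signs changed between leave-outs. Same-numbered libraries did not deviate together (correlations of -0.0241, -0.0276 and -0.00771), so the numbers were not taken as pairs. With the replicate block 14 Rab genes passed, 12 higher and 2 lower. The cause of these shifts was not tested.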
